A study of Mus musculus with 12 samples.

Results

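Translation initiation and elongation factors are the proteins that load ribosomes onto mRNA, find the start codon and drive the ribosome along the reading frame. The genes described here are the autosomal protein-coding mouse genes named Eif1 to Eif6 or Eef1 and Eef2 with any suffix, except the Eif2ak kinases, at a mean CPM, the count scaled to library depth, of at least 1 over the 12 libraries. Such genes number 56 of the 55471 genes in the count table, from 61 candidates. The members nearest above the limit were Eef1akmt4 at 6.52 CPM and Eif5a2 at 9.59 CPM. The 5 candidates below it were Eif3j2 (0.510 CPM), Eef1akmt3 (0.433), Eif4ebp3 (0.251), Eef1a2 (0.123) and Eif4e1b (0.0176). All 56 members passed the filter on low counts.

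Initiation starts when eIF2 carries the initiator tRNA to the small ribosomal subunit with eIF1, eIF1A, eIF3 and eIF5, while eIF4E binds the mRNA cap, eIF4G bridges to eIF3, and the helicase eIF4A opens the leader. The exchange factor eIF2B recharges eIF2 with GTP, and 4E-BP proteins hold eIF4E when mTOR is inactive. In elongation eEF1A delivers aminoacyl-tRNAs, the eEF1B complex recharges it, and eEF2 moves the ribosome by a codon. The mRNAs of eEF1A, eEF2, some eIF3 subunits and eIF4B begin with a run of pyrimidines, the 5′ terminal oligopyrimidine (TOP) motif, which places their translation under mTOR control. Blood-forming stem cells are known for a low rate of protein synthesis that they need to keep low.

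The RNA came from LSK cells, the bone marrow fraction negative for lineage markers and positive for Sca-1 and Kit, with stem cells and early progenitors, of mice that had received a primary transplant, at 6 weeks past tamoxifen treatment. The 12 libraries were 2 each of WT, HOXA9_KO (Hoxa9 targeted), Bcat_KO (β-catenin, gene Ctnnb1, targeted), dKO (both targeted), PRMT1_KO (the arginine methyltransferase gene Prmt1 targeted) and WT_PRMT1, the controls of the latter. The titles call the groups KO, whereas the genotype field calls them knockdown. The alleles, the Cre driver, the animals' age and the animals behind each library are not stated in the sources used here, so p-values measure the spread between these libraries, which may be technical. The series title names Hoxa9 and β-catenin as guarding the genome and stem cells in a way that depends on Prmt1, and each knockout was compared with its control. Libraries are named by group and by the S tag of their column, and depth ran from 17569709 to 40553891 counts.

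The targeted genes were lower where the labels say so. Hoxa9 was at 58.7 and 59.9 CPM (WT), 12.2 and 8.36 (HOXA9_KO) and 9.21 and 8.92 (dKO). Ctnnb1 was at 315 and 342 CPM (WT), 276 and 267 (Bcat_KO) and 227 and 235 (dKO), so most Ctnnb1 reads remained. Prmt1 was at 283 and 292 CPM (WT_PRMT1) and 118 and 112 (PRMT1_KO). Xist, transcribed in female cells, was at 163 to 202 CPM in WT and WT_PRMT1 and at most 0.758 in HOXA9_KO, dKO and PRMT1_KO, and the Y-linked Ddx3y was at most 2.87 CPM in WT and WT_PRMT1 and 60.6 to 93.5 in every knockout library. Bcat_KO held Ddx3y and some Xist (11.2 and 21.9 CPM). Sex and knockout therefore cannot be told apart in the comparisons with WT or WT_PRMT1, whereas HOXA9_KO and dKO shared 1 pattern. All 9 LSK markers were detected in every group (summed 1378 to 2157 CPM), but single ones shifted: 4 were higher and 2 lower in HOXA9_KO, 2 and 2 (Bcat_KO), 3 and 3 (dKO), 5 and 0 (PRMT1_KO), and 4 were lower in WT_PRMT1 than in WT. Slamf1, a stem cell marker, rose in all 4 knockouts and was at 8.32 and 7.87 CPM (WT), 42.3 and 38.3 (HOXA9_KO), 15.3 and 16.1 (Bcat_KO), 43.7 and 67.6 (dKO), 1.25 and 2.52 (WT_PRMT1), and 18.3 and 16.9 (PRMT1_KO). Flt3, a progenitor marker, fell in HOXA9_KO, Bcat_KO and dKO. In PRMT1_KO Flt3 was not called, at 523 and 520 CPM against 453 and 495 (WT_PRMT1). The markers did not move together: Hlf was called lower in dKO and Cd34 lower in HOXA9_KO and dKO. Ly6a was called lower in Bcat_KO and higher in HOXA9_KO, dKO and PRMT1_KO.

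Markers of other cells also differed between groups, and the part of any marker in the results below was not tested. B cell markers (8 of 8 tested) summed to 706 and 878 CPM (WT), 190.2 and 386 (HOXA9_KO), 72.96 and 70.7 (Bcat_KO), 145 and 66.4 (dKO), 952 and 912 (WT_PRMT1), and 82.4 and 83.4 (PRMT1_KO). Dividing-cell markers (10 of 10) summed to 1332 and 1379.9 CPM (WT), 1052 and 1224 (HOXA9_KO), 1610.2 and 1632 (Bcat_KO), 709 and 497 (dKO), 1695 and 1708 (WT_PRMT1), and 693 and 748 (PRMT1_KO). Megakaryocyte markers (7 of 8) summed to 221 and 174 CPM (WT), 736 and 792 (HOXA9_KO), 312 and 304 (Bcat_KO), 1379 and 1181 (dKO), 77.2 and 79.4 (WT_PRMT1), and 917 and 867 (PRMT1_KO). Neutrophil markers (10 of 10) summed to 16.1 and 28.6 CPM (Bcat_KO), where Ltf, Retnlg, Mmp9 and Ly6g had no count in either library, and to between 79.7 and 2438 CPM in the other libraries. Erythroid markers (10 of 10) summed to 1254 and 310.2 CPM (WT), 669 and 598 (WT_PRMT1) and 59.6 and 57.3 (PRMT1_KO), and to between 22.8 and 406 in the other groups. T and NK cell markers (8 of 8) summed to between 69.3 and 137 CPM, of which Nkg7 alone gave 40.9 to 132 CPM. Cd4 was at 3.82 and 2.41 CPM (WT) and 27.3 and 22.7 (WT_PRMT1), a call between the controls, and was called lower in HOXA9_KO, Bcat_KO and dKO than in WT. Other T and NK cell markers were called in both directions. Klrb1c was higher in dKO, and Nkg7 was higher in PRMT1_KO and lower in WT_PRMT1 than in WT. Cd3g and Ncr1 were lower in PRMT1_KO, and Cd3e and Ncr1 were lower in Bcat_KO. Also without a count in both libraries of a group were Trim10 (erythroid) in Bcat_KO, Cd3e (T cells) in HOXA9_KO and Bcat_KO, and Gp1bb (megakaryocytes) in WT, WT_PRMT1 and Bcat_KO. In a bulk sample, fewer cells of a type and less RNA per cell cannot be told apart.

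Levels between genes were compared as TPM, a level per length, averaged over the 12 libraries. The length was the exon length of each gene listed with the counts, which can exceed that of its main transcript. Eef1a1, the tRNA-delivering factor, led with a mean level of 20349 TPM. Eef2, the translocase, followed at 5512 TPM. Next came Eef1b2 at 1511, Eif5a at 1475 and Eef1g at 1448 TPM, levels that lay close together. Among initiation factors other than Eif5a, Eif1 (824 TPM), Eif3h (729), Eif3f (598), Eif4b (580.4) and Eif4a1 (538) were highest. The cap-binding protein Eif4e was at 48.7 TPM, lower than its partner Eif4g1 (165) and its repressor Eif4ebp2 (151). Lowest were Eif5a2 (5.04 TPM), Eif2b3 (9.87) and Eef1akmt4 (10.7).

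The 56 members together held 3.94 and 4.15% of all counts in WT_PRMT1 and 5.54 and 5.34% (PRMT1_KO), and 3.89 to 4.34% in the other 8 libraries. Both PRMT1_KO libraries thus stood above the other 10. Most of that excess lay in Eef1a1 and Eef2. Eef1a1 held 1.64 and 1.78% (WT_PRMT1) and 2.75 and 2.61% (PRMT1_KO). Eef2 held 0.578 and 0.62% (WT_PRMT1) and 0.973 and 0.937% (PRMT1_KO). The other 54 members held 1.72 and 1.75% (WT_PRMT1), 1.81 and 1.79% (PRMT1_KO), and 1.6 to 1.79% in the other 8 libraries. Values below are CPM after TMM scaling, and each change is a log2 fold change with its SE from the fit. A call is an adjusted p under 0.05 over the 17063 genes tested.

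PRMT1_KO differed from its control in more members than any other knockout. Against WT_PRMT1, 19 members rose and 7 fell, 46.4% of the 56, beside 32.5% of all genes called, 16.6% higher and 16% lower. The median change was 0.07 over the members and -0.03 over all genes. Scaling by library size moved the median of all genes to -0.17 and the split to 14 higher and 12 lower. A fit of only the groups compared called 29 members, 18 higher and 11 lower, beside 47.8% of all genes. Of the 26 calls 18 held without each library in turn. Of the markers, 8 of 8 for B cells, 8 of 10 for dividing cells and 6 of 10 for erythroid cells were called lower in PRMT1_KO, while 2 erythroid and 6 of 7 megakaryocyte markers were called higher. None of the 10 neutrophil markers was called by edgeR, although both PRMT1_KO sums (2438 and 2016 CPM) lay above both of WT_PRMT1 (696 and 775); 1 of them, Mmp8, had an unadjusted p under 0.05. Members that rose included Eef1a1, Eef2, Eif3e, Eif4b and Eif1a, and those that fell included Eif4g3, Eif4a2, Eef1e1 and Eef1d.

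In Bcat_KO against WT 8 members fell and 1 rose (17.2% of all genes called, 7.48% higher and 9.76% lower), and the median was -0.05 over the members and -0.04 over all genes. The 8 were Eef1a1, Eef1b2, Eif3e, Eif3f, Eif3k, Eif3m, Eif4g2 and Eif4ebp2, and Eif3a rose. With library-size scaling the split was 2 higher and 7 lower. Calls for 6 of the 9 held without each library, and 7 of 10 neutrophil, 8 of 10 erythroid and 8 of 8 B cell markers were called lower in Bcat_KO, and 3 of 7 megakaryocyte and 2 of 10 dividing-cell markers higher.

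In dKO against WT 11 members fell and 3 rose (17.7% of all genes called, 9.15% higher and 8.52% lower), and the medians were -0.08 over the members and 0.01 over all genes. Eef2k, Eif4e, Eif4a1, Eif5 and Eif2s1 were among those that fell, and Eif5a2, Eif4b and Eef2 rose. Scaled by library size 13 fell and none rose. Of the markers, 9 of 10 for dividing cells and 7 of 8 for B cells were called lower in dKO, and 6 of 7 for megakaryocytes higher. These calls rested on few libraries, and the Eef2k call alone held without each library in turn. More genes passed the filter on low counts in those runs, so a lost call need not rest on the library alone. Each of those runs also called a smaller share of all genes. Whether the members lost a larger part of their calls than other genes did was not tested.

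In HOXA9_KO against WT 1 member fell, Eif1, and none rose (6.73% of all genes called, 4.44% higher and 2.3% lower). Of the members 39 had negative and 17 positive fold changes, with a median of -0.09 against -0.00 over all genes. At an unadjusted p under 0.05, 13 members were lower and none higher by edgeR, but all genes were not counted at that threshold. DESeq2 called 8 lower and none higher, beside 9.55% of all genes called by DESeq2 in either direction. Between the control groups, WT_PRMT1 against WT, 1 member (Eif1a) was lower (7.58% of all genes called, 3.71% higher and 3.87% lower), 13 members had an unadjusted p under 0.05, and DESeq2 called 1 higher and 1 lower (10.9% of all genes).

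**Figure D1:**
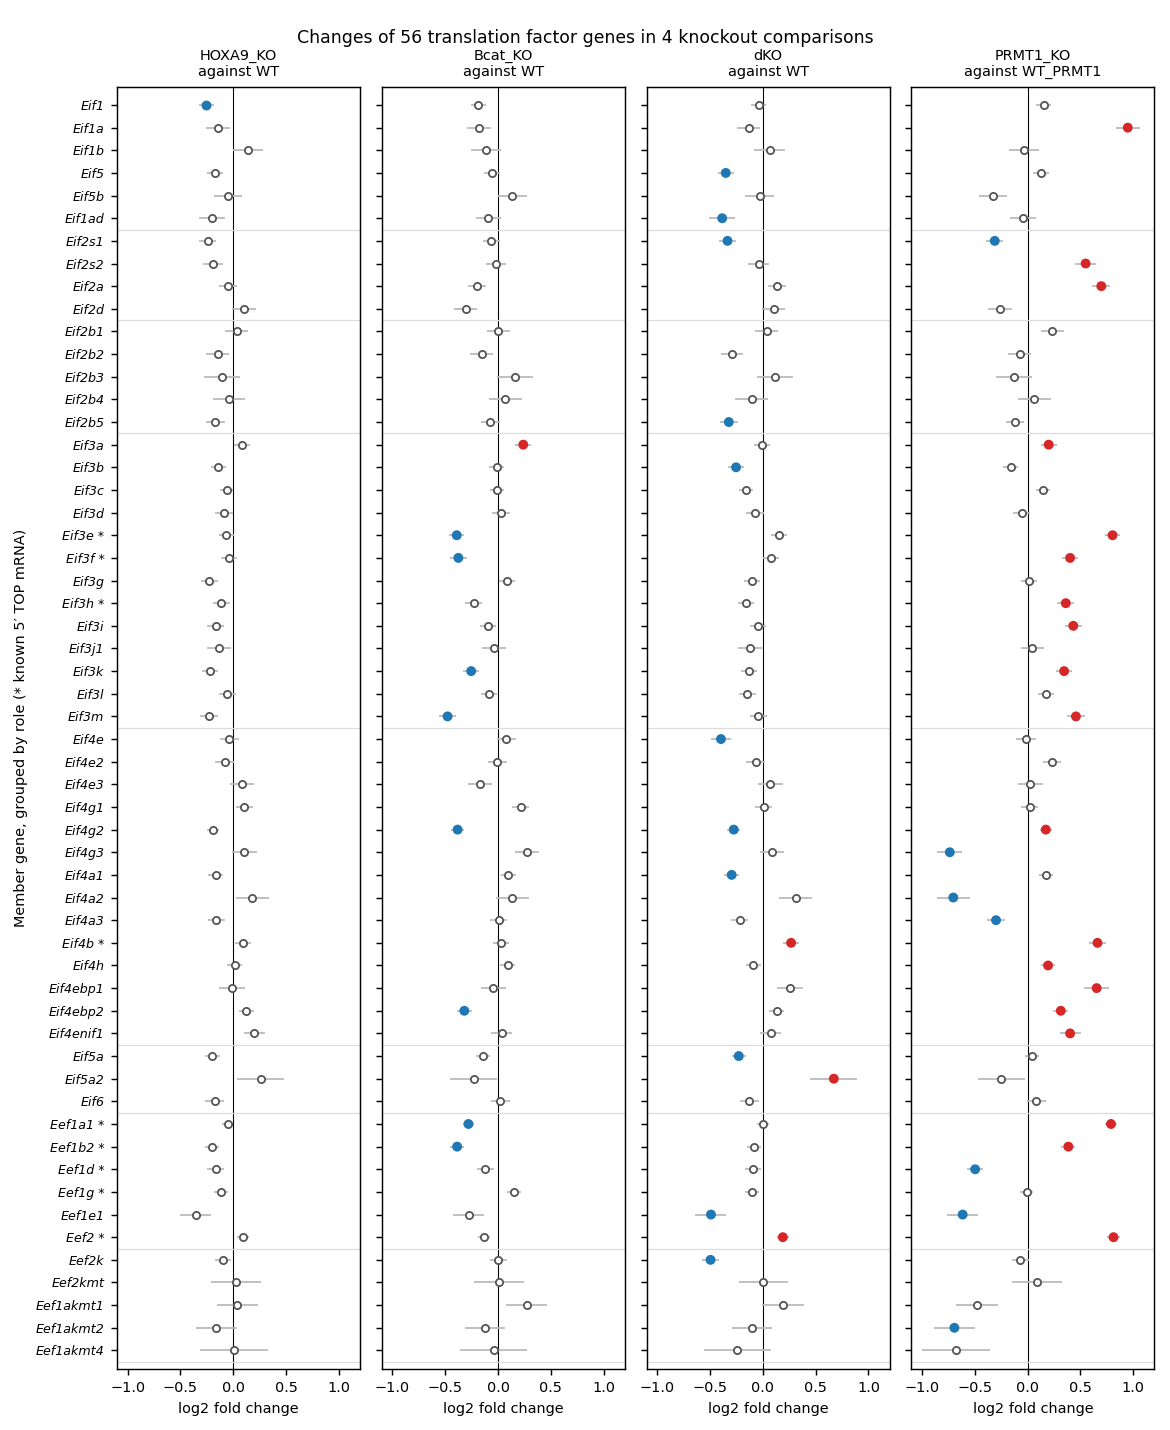
Log2 fold change (x axis) of each of the 56 members (rows, grouped by role) in 4 comparisons of a knockout with its control. Bars are 1 SE from the fit of all 12 libraries, 2 per group, and do not show the spread within a group. Filled points passed an adjusted p of 0.05 (red higher, blue lower), and open points did not. PRMT1_KO has 19 red and 7 blue points, dKO 3 and 11, Bcat_KO 1 and 8, and HOXA9_KO a single blue point.

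Of the 6 genes grouped as elongation factors, 3 rose and 2 fell in PRMT1_KO, beside 16.6% of all genes higher and 16% lower. In Bcat_KO 2 fell, beside 9.76% of all genes lower. The 6 include Eef1e1, which fell in PRMT1_KO and encodes a protein of the tRNA synthetase complex. Eef1a1 (GRCm38 chromosome 9, 78478449 to 78489151, minus strand) stood at 18107 and 18559 CPM (WT), 16821 and 18506 (HOXA9_KO), 15095 and 15100 (Bcat_KO), 18032 and 18660 (dKO), 16345 and 17625 (WT_PRMT1), and 30275 and 28415 (PRMT1_KO). Both PRMT1_KO libraries lay above the other 10 and both Bcat_KO libraries below them. Eef1a1 rose by 0.79 ± 0.06 (adjusted p = 1.44e-08) in PRMT1_KO, and by 0.65 with library-size scaling. It fell by 0.28 ± 0.06 (adjusted p = 0.00252) in Bcat_KO, while the value in dKO was 0.00 ± 0.05 (0.994). Both calls held without each library.

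Eef2 (chromosome 10, 81176631 to 81182498, plus strand) stood at 6079 and 6275 CPM (WT), 6297 and 6886 (HOXA9_KO), 5818 and 5466 (Bcat_KO), 6931 and 7153 (dKO), 5757 and 6138 (WT_PRMT1), and 10695 and 10199 (PRMT1_KO). It rose by 0.81 ± 0.06 (adjusted p = 2.05e-08) in PRMT1_KO, a call that held in every alternative. The rise in dKO was 0.19 ± 0.06 (adjusted p = 0.0327), and it was lost without WT S1 (adjusted p = 0.254), WT S2 (0.0943), dKO S6 (0.0577), dKO S7 (0.184), with library-size scaling (0.0619), without robust estimation (0.0639) or in a fit of only the groups compared (0.086).

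Eef1b2, the exchange subunit that recharges eEF1A, was at 1542 and 1444 CPM (WT), 1274 and 1327 (HOXA9_KO), 1152 and 1131 (Bcat_KO), 1397 and 1414 (dKO), 1480 and 1431 (WT_PRMT1), and 2008 and 1796 (PRMT1_KO). It rose by 0.39 ± 0.07 (adjusted p = 0.000205) in PRMT1_KO and fell by 0.39 ± 0.07 (adjusted p = 0.000846) in Bcat_KO. The other subunits of that complex went elsewhere. Eef1d stood at 326 and 353 CPM (WT), 309.6 and 295 (HOXA9_KO), 308 and 317 (Bcat_KO), 309.9 and 327 (dKO), 313 and 282 (WT_PRMT1), and 215 and 207 (PRMT1_KO), and it fell by 0.50 ± 0.08 (adjusted p = 8.82e-05) in PRMT1_KO, where Eef1b2 rose. Eef1g was at 1466 and 1440.2 CPM (WT), 1265 and 1412 (HOXA9_KO), 1582 and 1649.6 (Bcat_KO), 1358 and 1344 (dKO), 1327 and 1382 (WT_PRMT1), and 1378 and 1311 (PRMT1_KO). Its change in PRMT1_KO was -0.01 ± 0.07 (adjusted p = 0.93).

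Eef1e1, which encodes a protein of the tRNA synthetase complex, was at 31.4 and 33.04 CPM (WT), 24.2 and 26.1 (HOXA9_KO), 23.9 and 29.2 (Bcat_KO), 21.8 and 23.99 (dKO), 41.7 and 36.7 (WT_PRMT1), and 26.95 and 24.2 (PRMT1_KO). It fell by 0.62 ± 0.15 (adjusted p = 0.00344) in PRMT1_KO and by 0.49 ± 0.15 (adjusted p = 0.0272) in dKO. WT_PRMT1 held more of it than WT (0.28 ± 0.15, adjusted p = 0.308, no call). The call in PRMT1_KO was lost without WT_PRMT1 S10 (adjusted p = 0.0599) or PRMT1_KO S9 (0.0557), and that in dKO without WT S1 (adjusted p = 0.0961), WT S2 (0.212), dKO S6 (0.126), dKO S7 (0.0569) or in a fit of only the groups compared (0.0526).

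Of 5 genes that modify the elongation factors, 1 fell in dKO (8.52% of all genes lower) and 1 in PRMT1_KO (16% lower). Eef2k, the kinase that stops eEF2 by phosphorylating it, lies at chromosome 7, 120842831 to 120907450, plus strand. It stood at 250.3 and 268 CPM (WT), 245 and 239.9 (HOXA9_KO), 257 and 263 (Bcat_KO), 177 and 192 (dKO), 218 and 236 (WT_PRMT1), and 213 and 220.04 (PRMT1_KO), and the dKO libraries were the 2 lowest of the 12. Eef2k fell by 0.50 ± 0.08 (adjusted p = 0.000242) in dKO against WT in every alternative, with changes of -0.10 ± 0.08 in HOXA9_KO and 0.00 ± 0.08 in Bcat_KO that did not pass. Eef1akmt2, a methyltransferase of eEF1A, was at 22.5 and 23.5 CPM (WT_PRMT1), 12.4 and 16.01 (PRMT1_KO) and 18.1 to 24.3 in the other 8 libraries. It fell by 0.69 ± 0.19 (adjusted p = 0.00966) in PRMT1_KO, and the call was lost without WT_PRMT1 S11 (adjusted p = 0.0672) or PRMT1_KO S8 (0.144). Eef2kmt, Eef1akmt1 and Eef1akmt4 ranged from 12.96 to 31.3, 10.97 to 16.8 and 4.10 to 8.75 CPM with no call in any comparison.

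The 9 members known as TOP mRNAs (Eef1a1, Eef1b2, Eef1d, Eef1g, Eef2, Eif3e, Eif3f, Eif3h and Eif4b) are a list chosen with earlier results of these data known. In PRMT1_KO 7 of the 9 rose and 1, Eef1d, fell, with a median of 0.40. The other 47 members gave 12 higher, 6 lower and a median of 0.04. Over all genes 16.6% were higher and 16% lower, with a median of -0.03. In Bcat_KO 4 of the 9 fell, none rose, and the median was -0.23, beside 9.76% of all genes lower and a median of -0.04. With library-size scaling the count was again 7 higher and 1 lower in PRMT1_KO, and 1 was higher and 4 lower in Bcat_KO. In dKO 2 rose and none fell under TMM (9.15% of all genes higher and 8.52% lower), and neither call remained under library-size scaling.

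**Figure D2:**
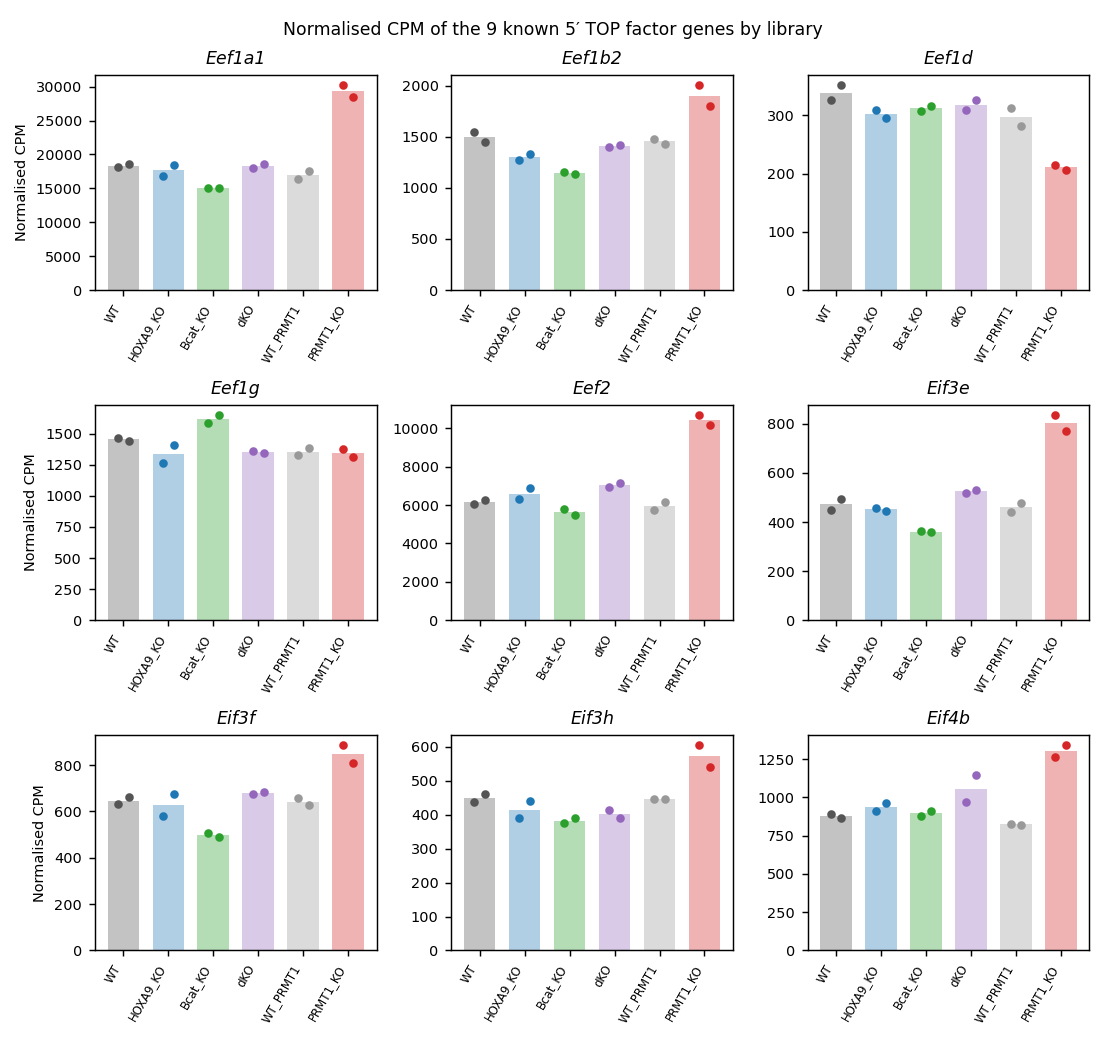
Normalised CPM (y axis, from 0) of the 9 TOP factor genes in each library. Points are libraries and bars are means of 2. For Eef1a1 and Eef2 both PRMT1_KO points lie above all others, Eef1d in PRMT1_KO lies below all others, and the Bcat_KO points are the lowest for Eef1a1, Eef1b2, Eif3e and Eif3f.

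RefSeq promoters (GRCm38.p6, 250 bases before to 50 after each listed start) were found for 44 of the 56 members. Within 50 bases of a listed start, a run of at least 10 C or T letters on the transcript strand occurred in 13 of the 44 (29.5%) and in 20.6% of 27025 genes. Of 13 matched members that rose in PRMT1_KO, 6 held such a run (46.2%), of 6 that fell 1 did (16.7%), and of 6 that fell in Bcat_KO 4 did (66.7%). So did the 1 that rose in Bcat_KO, Eif3a (13 letters), 4 of 10 that fell in dKO, none of 3 that rose in dKO, and 2 of 5 matched TOP members. Windows of 30 bases are shown for 4 members that rose in PRMT1_KO, with the longest run in capitals, because the TOP motif is such a run at the mRNA's first base.
Eef1a1, chr9:78481710-78481739, minus strand: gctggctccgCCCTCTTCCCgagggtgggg
Eef2, chr10:81176634-81176663, plus strand: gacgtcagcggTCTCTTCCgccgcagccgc
Eif3f, chr7:108934403-108934432, plus strand: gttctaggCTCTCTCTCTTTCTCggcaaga
Eif3m, chr2:105017028-105017057, minus strand: tacggcaccgCTCTCTTTTCCggtcggcgt
The runs are 10, 8, 15 and 11 letters long, and those of Eef1a1 and Eif3f reach across the listed start, beginning 5 and 4 bases before it. The genes Eif4a2 and Eif4g3, which fell in PRMT1_KO, have longest runs of 5 and 7 letters, and those begin 29 and 34 bases before the start. The short runs do not set them apart: Eef1akmt2, which also fell, has a run of 10 letters, and Eif4ebp2, Eif4h, Eif2s2 and Eif2a, which rose, have longest runs of 2, 4, 5 and 6 letters.
Eif4a2, chr16:23107426-23107455, plus strand: agggctccgccggCCTCTgcggcagggccg
Eif4g3, chr4:137993409-137993438, plus strand: cggtctgccgagTCCTTCCgaaaagggccg
The longest run of any member, 21 letters, belongs to Eif2b5. Eef1b2, a TOP gene that rose in PRMT1_KO, has a longest run of 5 letters near its listed start.

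Of the 6 genes grouped under start site selection, 1 rose in PRMT1_KO (16.6% of all genes higher). In dKO 2 fell (8.52% of all genes lower), and in HOXA9_KO 1 fell (2.3% lower). Eif1a, which encodes an eIF1A that works with eIF1 in scanning, was at 109 and 109.8 CPM (WT), 113 and 84.6 (HOXA9_KO), 94.1 and 98.5 (Bcat_KO), 97.7 and 101 (dKO), 81.7 and 73.9 (WT_PRMT1), and 145 and 155 (PRMT1_KO). It rose by 0.95 ± 0.11 (adjusted p = 4.35e-06) in PRMT1_KO. The WT_PRMT1 libraries were the 2 lowest of the 12, and lower than WT by 0.49 ± 0.11 (adjusted p = 0.0102), a call lost without WT S2 (adjusted p = 0.0553) or WT_PRMT1 S11 (0.123). Its X-linked relative Eif1ax, no member here, was at 213 and 208 CPM (WT_PRMT1) and 162 and 162 (PRMT1_KO), and it fell by 0.38 ± 0.08 (adjusted p = 0.00219).

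Eif1, which keeps the scanning complex open, stood at 725 and 671 CPM (WT), 563 and 606 (HOXA9_KO), 613 and 612 (Bcat_KO), 678 and 680.2 (dKO), 651 and 616 (WT_PRMT1), and 678 and 728 (PRMT1_KO). It fell by 0.26 ± 0.07 (adjusted p = 0.0364) in HOXA9_KO, and the call was lost without WT S1 (adjusted p = 0.372), WT S2 (0.108), HOXA9_KO S4 (0.27), without robust estimation (0.0635) or in a fit of only the groups compared (0.063). Genes with at least 95% identity to Eif1 over 200 bases held counts equal to 14.9% of its own, nearly all of them at Emd. Those can be reads of Emd itself, and reads shared with Eif1 were not measured, so any effect on its level is unknown. Eif1b, a paralogue, was at 48.95 and 55.7 CPM (WT), 54.7 and 60.7 (HOXA9_KO), 53.2 and 43.5 (Bcat_KO), 53.7 and 55.6 (dKO), 58.3 and 47.1 (WT_PRMT1), and 58.2 and 44.7 (PRMT1_KO) with no call.

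Eif5, which triggers GTP hydrolysis by eIF2, was at 365 and 351 CPM (WT), 331 and 303 (HOXA9_KO), 341 and 347 (Bcat_KO), 291 and 270.3 (dKO), 329.7 and 350.3 (WT_PRMT1), and 357 and 387 (PRMT1_KO). The dKO libraries were the 2 lowest, and Eif5 fell by 0.35 ± 0.08 (adjusted p = 0.00384) in dKO. The call was lost without WT S1 (adjusted p = 0.0536). Eif1ad, an eIF1A-like gene, ran from 45.9 to 70.7 CPM and fell by 0.39 ± 0.12 (adjusted p = 0.0369) in dKO, a call lost without WT S2 (adjusted p = 0.548), dKO S7 (0.239), without robust estimation (0.0571) or in a fit of only the groups compared (0.0778). Eif5b, which joins the subunits, ran from 135 to 199.5 CPM with no call.

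The 4 factors that bring the initiator tRNA moved in both directions in PRMT1_KO. Eif2s1 encodes the α subunit of eIF2 that stress kinases phosphorylate. It stood at 149 and 156 CPM (WT), 131 and 127 (HOXA9_KO), 145 and 147 (Bcat_KO), 125 and 116 (dKO), 151 and 149 (WT_PRMT1), and 125 and 117 (PRMT1_KO). It fell by 0.31 ± 0.08 (adjusted p = 0.00576) in PRMT1_KO and by 0.33 ± 0.08 (adjusted p = 0.00685) in dKO. The first call was lost without WT_PRMT1 S10 (adjusted p = 0.0569), WT_PRMT1 S11 (0.0538) or PRMT1_KO S9 (0.0963), and the second without WT S2 (adjusted p = 0.141) or dKO S7 (0.0814).

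Eif2s2, the β subunit, was at 199.8 and 199.6 CPM (WT), 182 and 167 (HOXA9_KO), 181 and 214 (Bcat_KO), 210.1 and 178 (dKO), 169 and 181 (WT_PRMT1), and 260.2 and 252 (PRMT1_KO). It rose by 0.55 ± 0.10 (adjusted p = 0.000248) in PRMT1_KO, so the 2 autosomal subunit genes were called in opposite directions. The γ subunit lies on the sex chromosomes and is no member. Eif2s3x stood at 123 and 125 CPM (WT), 87.9 and 84.4 (HOXA9_KO), 129.8 and 133 (Bcat_KO), 84.1 and 81.2 (dKO), 136 and 137 (WT_PRMT1), and 100.3 and 98.6 (PRMT1_KO). Its Y copy, Eif2s3y, was at 1.88 and 2.59 CPM (WT), 52.6 and 53.3 (HOXA9_KO), 36.7 and 33.3 (Bcat_KO), 54.9 and 60.3 (dKO), 1.81 and 1.75 (WT_PRMT1), and 90.8 and 95.2 (PRMT1_KO). Eif2a, an alternative initiator tRNA carrier, was at 156 and 173 CPM (WT), 149 and 169 (HOXA9_KO), 147 and 140.1 (Bcat_KO), 184 and 177 (dKO), 152 and 158 (WT_PRMT1), and 259 and 244 (PRMT1_KO) and rose by 0.70 ± 0.09 (adjusted p = 6.74e-06) in PRMT1_KO. Eif2d ran from 50.4 to 84.7 CPM with no call against a control.

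Of the 5 eIF2B subunit genes, 4 had no call in any of the 9 comparisons. Eif2b5, the catalytic ε subunit, was at 97.6 and 104 CPM (WT), 94.6 and 84.7 (HOXA9_KO), 93.3 and 98.3 (Bcat_KO), 79.5 and 81.6 (dKO), 99.9 and 97.9 (WT_PRMT1), and 91.4 and 90.5 (PRMT1_KO). It fell by 0.32 ± 0.09 (adjusted p = 0.0154) in dKO, a call lost without WT S1 (adjusted p = 0.0502), WT S2 (0.228), dKO S6 (0.071), dKO S7 (0.0574) or with no filter (0.0598). The ranges were 46.96 to 67.97 CPM for Eif2b1, 64 to 95.02 for Eif2b2, 19.5 to 29.5 for Eif2b3 and 28.7 to 42.3 for Eif2b4.

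The scaffold eIF3 has 13 subunit genes among the members. In PRMT1_KO 7 rose and none fell, with a median of 0.20, beside 16.6% of all genes higher, 16% lower and a median of -0.03. With library-size scaling 6 were higher, 1 was lower and the median was 0.06, against -0.17 over all genes. In Bcat_KO 4 fell and 1 rose, with a median of -0.09. Over all genes in Bcat_KO 9.76% were lower and 7.48% higher, with a median of -0.04. Eif3e (GRCm38 chromosome 15, 43250058 to 43282719, minus strand) stood at 451 and 493 CPM (WT), 456 and 447 (HOXA9_KO), 362 and 358 (Bcat_KO), 518 and 531 (dKO), 442 and 479 (WT_PRMT1), and 836 and 772 (PRMT1_KO). It rose by 0.80 ± 0.07 (adjusted p = 2.81e-07) in PRMT1_KO and fell by 0.39 ± 0.07 (adjusted p = 0.00175) in Bcat_KO, and both calls held in every alternative.

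Eif3f was at 632 and 661 CPM (WT), 582 and 674 (HOXA9_KO), 506 and 491 (Bcat_KO), 676 and 685 (dKO), 656 and 626 (WT_PRMT1), and 886 and 807 (PRMT1_KO). It rose by 0.40 ± 0.08 (adjusted p = 0.000583) in PRMT1_KO and fell by 0.38 ± 0.08 (adjusted p = 0.00351) in Bcat_KO. Eif3m, which sits beside Eif3f and Eif3h in the complex, was at 283 and 271 CPM (WT), 236 and 236 (HOXA9_KO), 189 and 208 (Bcat_KO), 274 and 263 (dKO), 226 and 255 (WT_PRMT1), and 342 and 319 (PRMT1_KO). It rose by 0.46 ± 0.08 (adjusted p = 0.000322) and fell by 0.48 ± 0.08 (adjusted p = 0.000884) in the same comparisons. For both genes the 2 Bcat_KO libraries were the lowest of the 12 and the PRMT1_KO libraries the highest.

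Eif3k, a peripheral subunit, was at 299 and 276 CPM (WT), 236 and 258 (HOXA9_KO), 243 and 239 (Bcat_KO), 269 and 256 (dKO), 256 and 246 (WT_PRMT1), and 328 and 310.2 (PRMT1_KO). Its rise in PRMT1_KO was 0.34 ± 0.08 (adjusted p = 0.00219) and its fall in Bcat_KO 0.25 ± 0.08 (adjusted p = 0.0331), and the latter was lost without WT S1 (adjusted p = 0.21), WT S2 (0.0677), Bcat_KO S3 (0.0979), Bcat_KO S4 (0.136) or with library-size scaling (0.0617). Eif3a, the large core subunit, was at 529 and 498 CPM (WT), 559 and 526 (HOXA9_KO), 572 and 640.03 (Bcat_KO), 507 and 516 (dKO), 535 and 551 (WT_PRMT1), and 601 and 646 (PRMT1_KO). It rose by 0.24 ± 0.07 (adjusted p = 0.0363) in Bcat_KO, where 4 other subunits fell, but the call was lost without WT S1 (adjusted p = 0.129), WT S2 (0.259), Bcat_KO S4 (0.372) or without robust estimation (0.0549). Its rise in PRMT1_KO, 0.20 ± 0.07 (adjusted p = 0.0497), was lost without WT_PRMT1 S10 (adjusted p = 0.202), WT_PRMT1 S11 (0.0912), PRMT1_KO S8 (0.0535), PRMT1_KO S9 (0.314), with library-size scaling (0.628) or without robust estimation (0.0682).

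Eif3b, the other large core subunit, was at 525 and 572 CPM (WT), 517 and 478 (HOXA9_KO), 552 and 535 (Bcat_KO), 459 and 462 (dKO), 492 and 523 (WT_PRMT1), and 467 and 442 (PRMT1_KO) and fell by 0.25 ± 0.07 (adjusted p = 0.0219) in dKO, a call lost without WT S2 (adjusted p = 0.398), dKO S6 (0.0575), dKO S7 (0.0725) or in a fit of only the groups compared (0.0542). Eif3h and Eif3i rose in PRMT1_KO by 0.36 ± 0.08 (adjusted p = 0.00178) and 0.43 ± 0.08 (adjusted p = 0.000358). Eif3h ranged over the libraries from 375 to 605 CPM and Eif3i from 229 to 336. Eif3j1 was at 73.6 and 63.4 CPM (WT), 69.2 and 55.7 (HOXA9_KO), 65.6 and 68.1 (Bcat_KO), 64.7 and 61.2 (dKO), 73.3 and 71.7 (WT_PRMT1), and 76.3 and 73.2 (PRMT1_KO) with no call. Eif3c (445 to 543 CPM), Eif3d (124 to 168), Eif3g (165 to 209) and Eif3l (282 to 407) had no call against a control.

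Among the 14 genes of cap binding and mRNA unwinding, 6 rose and 3 fell in PRMT1_KO (16.6% of all genes higher and 16% lower). With library-size scaling 2 were higher and 3 lower (33.1% of all genes called). Eif4e, the cap-binding protein, stood at 115 and 122 CPM (WT), 122 and 109 (HOXA9_KO), 134 and 116 (Bcat_KO), 89.5 and 89.9 (dKO), 101 and 107 (WT_PRMT1), and 99.9 and 106 (PRMT1_KO). The dKO libraries were the 2 lowest, and Eif4e fell by 0.40 ± 0.09 (adjusted p = 0.00626) in dKO, a call lost without WT S2 (adjusted p = 0.0995). Eif4e2, a cap-binding repressor, was at 87.3 and 94.5 CPM (WT), 83.8 and 88.1 (HOXA9_KO), 90.6 and 90.5 (Bcat_KO), 89.6 and 83.9 (dKO), 93.2 and 86.2 (WT_PRMT1), and 103 and 107 (PRMT1_KO). Eif4e3 was at 43.7 and 42.5 CPM (WT), 44.2 and 46.97 (HOXA9_KO), 39.5 and 36.9 (Bcat_KO), 44.2 and 46.3 (dKO), 40.2 and 44.6 (WT_PRMT1), and 45.9 and 40.5 (PRMT1_KO). Neither paralogue was called in any comparison.

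**Figure D3:**
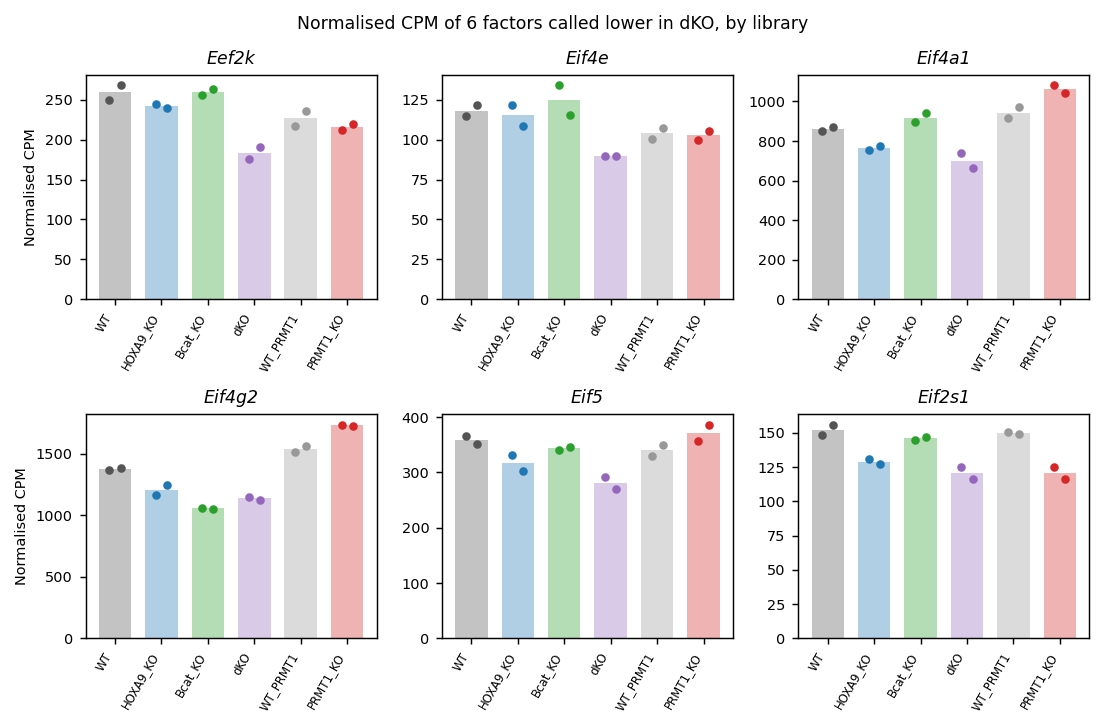
Normalised CPM (y axis, from 0) by library of 6 members that fell in dKO. Points are libraries and bars are means of 2. The dKO points are the lowest of the 12 for Eef2k, Eif4e and Eif5, whereas for Eif4g2 the Bcat_KO points and for Eif2s1 those of PRMT1_KO lie near or below them.

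The helicase gene Eif4a1 was at 849 and 869.5 CPM (WT), 756 and 776 (HOXA9_KO), 894 and 943 (Bcat_KO), 739 and 662 (dKO), 917 and 970.1 (WT_PRMT1), and 1082 and 1045 (PRMT1_KO). It fell by 0.30 ± 0.07 (adjusted p = 0.00602) in dKO, a call lost without WT S2 (adjusted p = 0.126) or dKO S7 (0.08). Eif4a2, its close paralogue, was at 263 and 248 CPM (WT), 295 and 284 (HOXA9_KO), 286 and 276 (Bcat_KO), 274 and 361 (dKO), 238 and 210.1 (WT_PRMT1), and 115 and 159.7 (PRMT1_KO). The PRMT1_KO libraries were the 2 lowest of the 12 and dKO S7 the highest. Eif4a2 fell by 0.70 ± 0.16 (adjusted p = 0.00597) in PRMT1_KO, and the call was lost without WT_PRMT1 S10 (adjusted p = 0.0589). As a share of the summed Eif4a1 and Eif4a2 level per length, Eif4a2 made up 17.4 and 15% (WT_PRMT1) and 7.94 and 11% (PRMT1_KO). Small nucleolar RNA genes lie within Eif4a2 on its strand, so its count may hold their reads.

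Eif4a3, the helicase of the exon junction complex, was at 234 and 222 CPM (WT), 195 and 214 (HOXA9_KO), 216 and 242 (Bcat_KO), 198 and 194 (dKO), 219.9 and 232 (WT_PRMT1), and 186 and 181 (PRMT1_KO). It fell by 0.30 ± 0.08 (adjusted p = 0.0087) in PRMT1_KO, a call lost without WT_PRMT1 S11 (adjusted p = 0.123) or PRMT1_KO S9 (0.0805). Eif4b, which stimulates eIF4A, was at 891 and 866 CPM (WT), 908 and 964 (HOXA9_KO), 879.8 and 913 (Bcat_KO), 966 and 1148 (dKO), 829 and 818 (WT_PRMT1), and 1263 and 1341 (PRMT1_KO). It rose by 0.66 ± 0.08 (adjusted p = 3.67e-06) in PRMT1_KO in every alternative. Its rise of 0.27 ± 0.08 (adjusted p = 0.0211) in dKO was lost without WT S1 (adjusted p = 0.0805), WT S2 (0.117), dKO S7 (0.41), with library-size scaling (0.055) or in a fit of only the groups compared (0.112). Eif4h, a relative of Eif4b, ran from 433 to 556 CPM and rose by 0.19 ± 0.07 (adjusted p = 0.0412) in PRMT1_KO, a call lost without WT_PRMT1 S10 (adjusted p = 0.264), PRMT1_KO S8 (0.163), PRMT1_KO S9 (0.126), with library-size scaling (0.609), with no filter (0.0603) or in a fit of only the groups compared (0.0548).

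The scaffold genes split. Eif4g1 was at 404 and 426 CPM (WT), 469.5 and 423 (HOXA9_KO), 485 and 477 (Bcat_KO), 398 and 438 (dKO), 461 and 481 (WT_PRMT1), and 452 and 504 (PRMT1_KO) with no call. Eif4g3 (GRCm38 chromosome 4, 137993022 to 138208508, plus strand), the less abundant scaffold, was at 117 and 121 CPM (WT), 132 and 125 (HOXA9_KO), 159 and 129 (Bcat_KO), 112 and 140.03 (dKO), 149.7 and 134 (WT_PRMT1), and 79.6 and 90.8 (PRMT1_KO). It fell by 0.74 ± 0.12 (adjusted p = 0.000122) in PRMT1_KO in every alternative. Of the summed Eif4g1 and Eif4g3 level per length, Eif4g3 held 17.7 and 15.6% (WT_PRMT1), 10.4 and 10.6% (PRMT1_KO) and 15.2 to 17.8% in the other 8 libraries.

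**Figure D4:**
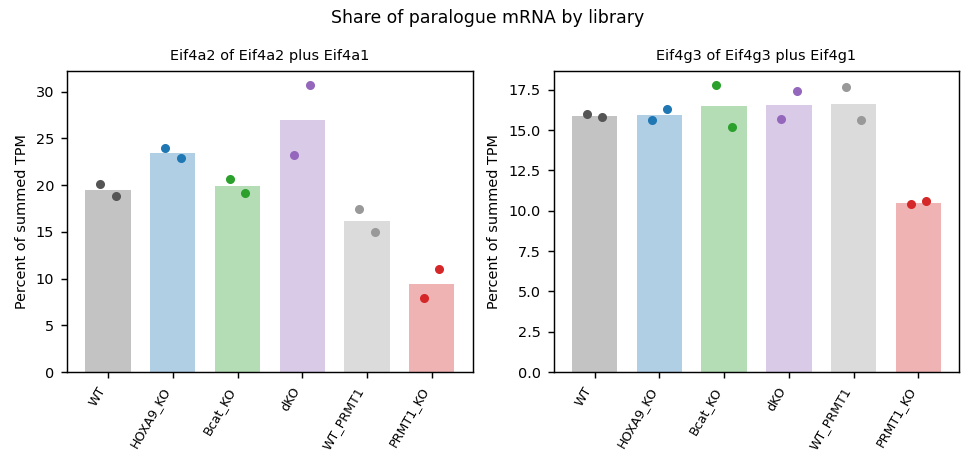
Share (percent, y axis from 0) of Eif4a2 in the summed TPM of Eif4a2 and Eif4a1, and of Eif4g3 in that of Eif4g3 and Eif4g1, in each library. Points are libraries and bars are means of 2. Both shares are lowest in PRMT1_KO (7.94 and 11%, 10.4 and 10.6%).

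Eif4g2, also called DAP5, which drives cap-independent initiation, was at 1367 and 1388 CPM (WT), 1167 and 1244 (HOXA9_KO), 1059 and 1053 (Bcat_KO), 1147 and 1129 (dKO), 1513 and 1566 (WT_PRMT1), and 1738 and 1729 (PRMT1_KO). It fell by 0.38 ± 0.06 (adjusted p = 0.000397) in Bcat_KO in every alternative and by 0.28 ± 0.06 (adjusted p = 0.00333) in dKO, and the dKO call was lost without WT S2 (adjusted p = 0.103). In PRMT1_KO it rose by 0.17 ± 0.06 (adjusted p = 0.0345), a call lost without WT_PRMT1 S10 (adjusted p = 0.178), WT_PRMT1 S11 (0.0511), PRMT1_KO S8 (0.129), PRMT1_KO S9 (0.12), with library-size scaling (0.728) or in a fit of only the groups compared (0.0781).

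The 4E-BP genes, which encode the eIF4E repressors under mTOR, rose in PRMT1_KO for both members measured. Eif4ebp1 was at 47.1 and 55.4 CPM (WT), 49.04 and 52.5 (HOXA9_KO), 44.4 and 54.9 (Bcat_KO), 59.1 and 63.4 (dKO), 40.01 and 39.2 (WT_PRMT1), and 61.3 and 63.4 (PRMT1_KO) and rose by 0.65 ± 0.12 (adjusted p = 0.00043). Eif4ebp2 was at 317 and 294 CPM (WT), 329 and 337 (HOXA9_KO), 244 and 246 (Bcat_KO), 335 and 334 (dKO), 344 and 344 (WT_PRMT1), and 426 and 429.6 (PRMT1_KO). It rose by 0.31 ± 0.07 (adjusted p = 0.00187), a call lost with library-size scaling (adjusted p = 0.0706). In Bcat_KO, whose libraries were the 2 lowest, Eif4ebp2 fell by 0.32 ± 0.07 (adjusted p = 0.00504), a call lost without WT S1 (adjusted p = 0.0663). Eif4enif1, which carries eIF4E into the nucleus, ran from 76.2 to 116 CPM and rose by 0.40 ± 0.10 (adjusted p = 0.00452) in PRMT1_KO, a call lost with library-size scaling (adjusted p = 0.0736).

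Eif5a encodes the hypusine-bearing factor that helps ribosomes past stalling sequences, and it was at 1408 and 1474 CPM (WT), 1224 and 1291 (HOXA9_KO), 1319.6 and 1293 (Bcat_KO), 1299 and 1162 (dKO), 1291 and 1342 (WT_PRMT1), and 1398 and 1313 (PRMT1_KO). It fell by 0.23 ± 0.07 (adjusted p = 0.0268) in dKO, a call lost without WT S1 (adjusted p = 0.0991), WT S2 (0.364), dKO S7 (0.25) or in a fit of only the groups compared (0.0676). Eif5a2, its rare paralogue, was at 7.64 and 8.61 CPM (WT), 9.99 and 9.49 (HOXA9_KO), 7.11 and 6.74 (Bcat_KO), 11.9 and 13.97 (dKO), 9.85 and 11.8 (WT_PRMT1), and 9.19 and 9.01 (PRMT1_KO). The dKO libraries were the 2 highest, although dKO S6 was close to WT_PRMT1 S11. Eif5a2 rose by 0.67 ± 0.22 (adjusted p = 0.0462) in dKO, a call lost without WT S1 (adjusted p = 0.276), WT S2 (0.133), dKO S6 (0.0799), dKO S7 (0.335), with library-size scaling (0.0638), with no filter (0.107) or in a fit of only the groups compared (0.0717). Eif6, which keeps the large subunit from joining too early, was at 139 and 145 CPM (WT), 121 and 130.2 (HOXA9_KO), 143 and 145 (Bcat_KO), 136 and 124 (dKO), 134 and 135 (WT_PRMT1), and 154 and 130.2 (PRMT1_KO) with no call in any comparison.

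Next, dKO was compared with each single knockout, in which 1 of the 2 genes was targeted. Against HOXA9_KO, the pair that shared a sex pattern, 1 member fell and none rose (1.75% of all genes called, 0.416% higher and 1.33% lower), while 5 higher and 3 lower had an unadjusted p under 0.05 and DESeq2 called 1 higher and 2 lower (3.64% of all genes). This was Eef2k, lower by 0.40 ± 0.08 (adjusted p = 0.0124), and the call was lost without HOXA9_KO S4 (adjusted p = 0.071), HOXA9_KO S5 (0.0603) or in a fit of only the groups compared (0.229). The dividing-cell markers summed to 1052 and 1224 CPM (HOXA9_KO) and 709 and 497 (dKO), and 6 of 10 were called lower.

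Against Bcat_KO 11 members were higher and 10 lower in dKO (28.1% of all genes called, 16.2% higher and 12% lower), and with library-size scaling 10 and 15. This comparison shares the Bcat_KO libraries with that against WT, so a low Bcat_KO value enters both. Ctnnb1 itself was lower in dKO than in Bcat_KO, by 0.23 ± 0.07 (adjusted p = 0.0259). All 10 neutrophil, 7 of 10 erythroid and 6 of 7 megakaryocyte markers were called higher in dKO and all 10 dividing-cell markers lower. Xist was lower in dKO by 4.99 ± 0.63 (adjusted p = 0.00187) and the Y-linked Eif2s3y higher by 0.72 ± 0.13 (adjusted p = 0.000561), so these groups differ in sex transcripts too. The largest rise was in Eif5a2, 0.90 ± 0.22 (adjusted p = 0.00614), lost without dKO S7 (adjusted p = 0.068). Eif3e rose by 0.54 ± 0.07 (adjusted p = 4.77e-05), Eif3f by 0.45 ± 0.08 (adjusted p = 0.000384), Eif4ebp2 by 0.45 ± 0.07 (adjusted p = 0.00016) and Eif3m by 0.44 ± 0.08 (adjusted p = 0.000841). Eef2, Eef1b2 and Eef1a1 rose by 0.32 ± 0.06, 0.30 ± 0.07 and 0.28 ± 0.06. Eef2k fell by 0.50 ± 0.08 (adjusted p = 0.00018), Eif4e by 0.48 ± 0.09 (adjusted p = 0.00116) and Eif4a1 by 0.39 ± 0.07 (adjusted p = 0.00051). These 10 calls other than Eif5a2 held without each library, and without Bcat_KO S4 12 members were called in all.

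The remaining 10 calls between dKO and Bcat_KO were each lost without some library. Eif2a rose by 0.33 ± 0.09, lost without Bcat_KO S4 (adjusted p = 0.054). Eif2d rose by 0.41 ± 0.11, lost without Bcat_KO S4 (adjusted p = 0.0596), dKO S6 (0.189) or in a fit of only the groups compared (0.0688). Eif4b rose by 0.24 ± 0.08, lost without Bcat_KO S3 (adjusted p = 0.107), Bcat_KO S4 (0.0517), dKO S7 (0.377), with library-size scaling (0.146), without robust estimation (0.0503) or in a fit of only the groups compared (0.116). Eef1g fell by 0.26 ± 0.07, lost without Bcat_KO S3 (adjusted p = 0.052) or Bcat_KO S4 (0.151). Eif5 fell by 0.29 ± 0.08, lost without Bcat_KO S3 (adjusted p = 0.0626), Bcat_KO S4 (0.102) or dKO S7 (0.0815). Eif2s1 fell by 0.27 ± 0.08, lost without Bcat_KO S3 (adjusted p = 0.0953), Bcat_KO S4 (0.153), dKO S7 (0.143), with no filter (0.0987) or in a fit of only the groups compared (0.0564). Eif3a and Eif3b, the core subunits, fell by 0.24 ± 0.07 and 0.24 ± 0.07. The Eif3a call was lost without Bcat_KO S4 (adjusted p = 0.367), dKO S6 (0.0713), dKO S7 (0.0535) or in a fit of only the groups compared (0.0575), and the Eif3b call without Bcat_KO S3 (adjusted p = 0.191), Bcat_KO S4 (0.119), dKO S6 (0.0662) or dKO S7 (0.0653). Eif2b5 fell by 0.25 ± 0.09, lost without Bcat_KO S3 (adjusted p = 0.11), Bcat_KO S4 (0.282), dKO S6 (0.159), dKO S7 (0.108), with no filter (0.216) or in a fit of only the groups compared (0.0866). Eif4a3 fell by 0.22 ± 0.08, lost without Bcat_KO S3 (adjusted p = 0.0676), Bcat_KO S4 (0.485), dKO S6 (0.0899), dKO S7 (0.159), with no filter (0.176), without robust estimation (0.0609) or in a fit of only the groups compared (0.0977).

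Departure from additivity compares dKO with the sum of both single knockout changes on the log2 scale. In 8 members dKO was higher than that sum and in 2 lower (8.43% of all genes called, 4.54% higher and 3.9% lower), and 6 and 4 with library-size scaling. The median was 0.03 over the members and 0.04 over all genes. The sum takes in the sex difference of each single knockout, whereas dKO holds it once: Ddx3y departed by -4.60 ± 0.31 (adjusted p = 6.7e-06) and Eif2s3y by -3.84 ± 0.20 (7.98e-09). Markers departed as well, with 5 of 10 for neutrophils and 7 of 10 for erythroid cells higher than the sum and 5 of 10 for dividing cells lower. The members' departures and the sex pattern cannot be told apart, and the part of the markers was not tested. Eif3m departed by 0.67 ± 0.12 (adjusted p = 0.00245), Eif3e by 0.61 ± 0.10 (adjusted p = 0.00203), Eef1b2 by 0.50 ± 0.09 (adjusted p = 0.00383) and Eif3f by 0.49 ± 0.11 (adjusted p = 0.0112), and these 4 held in every alternative. Eif3m, for instance, was at 283 and 271 CPM (WT), 236 and 236 (HOXA9_KO), 189 and 208 (Bcat_KO) and 274 and 263 (dKO).

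The other 6 departures were each lost without some library. Eef1a1 departed by 0.33 ± 0.08 (adjusted p = 0.0144), lost without WT S2 (adjusted p = 0.0727) or Bcat_KO S4 (0.0512). Eif1 departed by 0.41 ± 0.10 (adjusted p = 0.0193), lost without WT S1 (adjusted p = 0.0874) or Bcat_KO S4 (0.0505). Eif4g2 departed by 0.30 ± 0.08 (adjusted p = 0.0362), lost without WT S1 (adjusted p = 0.0947), WT S2 (0.137), HOXA9_KO S4 (0.0919), Bcat_KO S3 (0.0928), Bcat_KO S4 (0.109), dKO S6 (0.0726), with library-size scaling (0.0938), without robust estimation (0.0511) or in a fit of only the groups compared (0.0857). Eif4ebp2 departed by 0.32 ± 0.10 (adjusted p = 0.0492), lost without WT S1 (adjusted p = 0.18), WT S2 (0.0773), HOXA9_KO S4 (0.105), HOXA9_KO S5 (0.0557), Bcat_KO S3 (0.109), Bcat_KO S4 (0.104), dKO S6 (0.0854), dKO S7 (0.08), with library-size scaling (0.133), with no filter (0.0828), without robust estimation (0.057) or in a fit of only the groups compared (0.112). Eef2k departed by -0.40 ± 0.11 (adjusted p = 0.0336), lost without WT S1 (adjusted p = 0.212), WT S2 (0.0743), HOXA9_KO S4 (0.109), HOXA9_KO S5 (0.0788), Bcat_KO S3 (0.0875), Bcat_KO S4 (0.137), dKO S6 (0.1) or in a fit of only the groups compared (0.0505). Eif4e departed by -0.44 ± 0.13 (adjusted p = 0.0479), lost without WT S1 (adjusted p = 0.215), WT S2 (0.0992), HOXA9_KO S4 (0.209), Bcat_KO S3 (0.211), dKO S6 (0.0916), dKO S7 (0.0815), with RLE size factors (0.0528), with no filter (0.0731), without robust estimation (0.0674) or in a fit of only the groups compared (0.0716).

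The change in dKO was set against that in PRMT1_KO, 2 comparisons that share no library. Prmt1 itself stood at 322 and 334 CPM (WT) and 255 and 259 (dKO), a change of -0.35 ± 0.07 (adjusted p = 0.00206). The 2 changes differed in 20 members, 3 with the higher value in dKO and 17 with the lower (15.7% of all genes called, 7.93% higher and 7.75% lower), and 5 and 14 with library-size scaling. The median difference was -0.21 over the members and 0.03 over all genes. Eif1a differed by -1.08 ± 0.16 (adjusted p = 0.00016), with a change of -0.13 ± 0.11 in dKO and 0.95 ± 0.11 in PRMT1_KO. For Eef1a1 the difference was -0.79 ± 0.08 (3.87e-06), from 0.00 ± 0.05 and 0.79 ± 0.06. For Eef2 it was -0.62 ± 0.08 (7.07e-05), from 0.19 ± 0.06 and 0.81 ± 0.06. Eif4a2 differed the other way, by 1.02 ± 0.22 (0.0114), from 0.31 ± 0.16 in dKO and -0.70 ± 0.16 in PRMT1_KO, and this call was lost without WT_PRMT1 S10 (adjusted p = 0.0576). Eif4g3 differed by 0.82 ± 0.17 (0.00265) and kept the call in every alternative.

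Of the TOP members 6 had the lower and 1, Eef1d, the higher value in dKO, with a median of -0.47. All 13 eIF3 genes had negative differences, 6 of them called. Over all genes 7.75% were called lower and 7.93% higher, with a median of 0.03. Eif2s1 and Eef1e1, which fell in both knockouts, showed no call of a difference (-0.02 ± 0.11, adjusted p = 0.933, and 0.12 ± 0.21, 0.763).

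**Figure D5:**
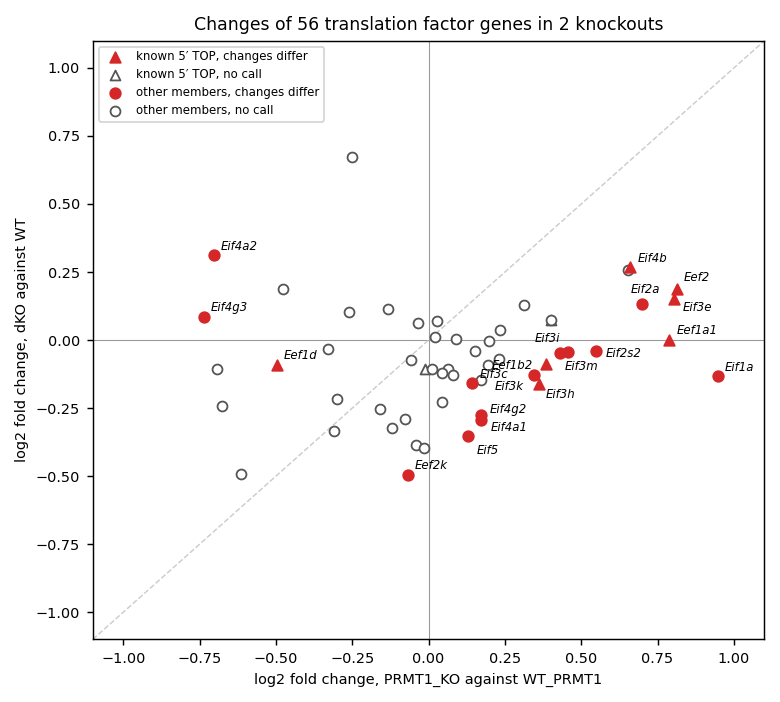
Log2 fold change of each of the 56 members in PRMT1_KO against WT_PRMT1 (x axis) and in dKO against WT (y axis). Triangles are TOP members, red filled points are the 20 members whose 2 changes differed at an adjusted p under 0.05, and the dashed line marks equal changes. Red points on the right, among them Eef1a1, Eef2, Eif3e and Eif1a, lie below the line, while Eif4a2, Eif4g3 and Eef1d lie above it.

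Genes that act on these factors were counted from lists chosen with earlier results known. Of 23 genes of translational control, 5 rose and 4 fell in PRMT1_KO (32.5% of all genes called), 7 rose and 1 fell in Bcat_KO (17.2%), 4 rose and 2 fell in dKO (17.7%), and 2 rose and 1 fell in HOXA9_KO (6.73%). Pdcd4, an inhibitor of eIF4A, was at 102 and 102 CPM (WT), 119.8 and 136 (HOXA9_KO), 151 and 159.97 (Bcat_KO), 183 and 128 (dKO), 66.1 and 61.3 (WT_PRMT1), and 240.4 and 263 (PRMT1_KO). It rose by 1.98 ± 0.13 (adjusted p = 9.81e-08) in PRMT1_KO, and by 0.61 ± 0.13 and 0.61 ± 0.13 in Bcat_KO and dKO. Its WT_PRMT1 level was lower than that of WT by 0.68 ± 0.13 (adjusted p = 0.00537). Deptor, an mTOR inhibitor, was at 18.4 and 20.5 CPM (WT), 40.6 and 48.8 (HOXA9_KO), 57.7 and 50.2 (Bcat_KO), 33.7 and 47.1 (dKO), 23.03 and 23.2 (WT_PRMT1), and 70.9 and 73.4 (PRMT1_KO) and rose in all 4 knockouts, by 1.64 ± 0.15 in PRMT1_KO, 1.47 ± 0.15 in Bcat_KO and 1.05 ± 0.15 in dKO.

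Larp1, the repressor that binds TOP mRNAs, was at 221 and 205 CPM (WT), 217 and 206 (HOXA9_KO), 302 and 297 (Bcat_KO), 219.8 and 221 (dKO), 202 and 183 (WT_PRMT1), and 263 and 312 (PRMT1_KO). It rose by 0.58 ± 0.09 (adjusted p = 7.04e-05) in PRMT1_KO and by 0.49 ± 0.09 (adjusted p = 0.00124) in Bcat_KO. Impact, an inhibitor of the kinase GCN2, rose by 1.04 ± 0.19 in PRMT1_KO, 1.32 ± 0.19 in Bcat_KO and 0.74 ± 0.19 in dKO. Atf4, the transcription factor of the stress response downstream of eIF2, fell by 0.43 ± 0.09 (adjusted p = 0.00364) in dKO and by 0.44 ± 0.09 (adjusted p = 0.00808) in HOXA9_KO. Eif2ak2, the kinase PKR, fell by 0.93 ± 0.13 (adjusted p = 3.19e-05) in PRMT1_KO, where its control was 0.73 ± 0.13 above WT. Rptor, a subunit of mTORC1, fell by 0.60 ± 0.13 (adjusted p = 0.0013) in PRMT1_KO and by 0.41 ± 0.13 (adjusted p = 0.0289) in dKO.

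Of 21 helper genes of initiation, elongation and termination, 5 rose and 3 fell in PRMT1_KO (32.5% of all genes called) and 2 rose and 2 fell in Bcat_KO (17.2%). In dKO 2 fell (17.7%), and none was called in HOXA9_KO (6.73%), where 1 gene had an unadjusted p under 0.05. Pabpc1, the poly(A)-binding protein, was at 3766 and 3805 CPM (WT), 3647 and 3899 (HOXA9_KO), 3345 and 3455 (Bcat_KO), 3808 and 3929 (dKO), 3699 and 3856 (WT_PRMT1), and 5237 and 5101 (PRMT1_KO) and rose by 0.45 ± 0.06 (adjusted p = 6.21e-06) in PRMT1_KO. Pabpc4, its relative, rose by 0.57 ± 0.07 (adjusted p = 1.49e-05) in PRMT1_KO and by 0.68 ± 0.07 (adjusted p = 1.63e-05) in Bcat_KO. Etf1, the release factor, rose by 0.54 ± 0.08 (adjusted p = 5.12e-05) in PRMT1_KO, and Eefsec, the selenocysteine elongation factor, fell by 0.92 ± 0.12 (adjusted p = 1.37e-05). Of 10 mitochondrial translation factors, which serve a separate ribosome, 2 fell in dKO (Tufm by 0.34 ± 0.09 (adjusted p = 0.0155) and Mtrf1l), beside 17.7% of all genes called. In PRMT1_KO 1 fell (Gfm2), beside 32.5% of all genes. None was called in Bcat_KO (17.2% of all genes) or HOXA9_KO (6.73%), where 1 gene each had an unadjusted p under 0.05.

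The 6 letters CACGTG, the E-box read by Myc and Max among others and the same on both strands, were searched over the full window of each promoter. They occurred in 13 of the 44 matched members (29.5%) and in 8.09% of 27025 genes. A C or T run can end on the motif's first letter, so both searches may share a letter. They were found in 5 of 13 members that rose in PRMT1_KO, in none of 6 that fell there, and in 4 of 10 that fell in dKO. The windows below, with CACGTG in capitals, belong to members whose levels are described above for dKO or as the cap complex.
Eef2k, chr7:120842788-120842817, plus strand: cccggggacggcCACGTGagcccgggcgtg
Eif4e, chr3:138527028-138527057, plus strand: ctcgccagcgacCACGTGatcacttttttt
Eif4a1, chr11:69672595-69672624, minus strand: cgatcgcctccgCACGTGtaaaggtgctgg
Eif4g1, chr16:20672661-20672690, plus strand: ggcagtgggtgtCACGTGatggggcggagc
Eif5a2, chr3:28781123-28781152, plus strand: actaatccgcagCACGTGgggttgccaggg
Eef2, chr10:81176576-81176605, plus strand: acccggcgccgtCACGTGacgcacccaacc
Eef2k, Eif4e and Eif4a1 fell in dKO, Eif5a2 and Eef2 rose there, and Eif4g1 was not called, so carriers of the motif lay on both sides. A match is a description of letters and shows no binding.

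Some members have near-identical copies or overlapping genes, and reads shared between them were not measured. Copies of at least 95% identity over 200 bases were found for 17 members, and apart from Eif1 the copies' counts came to under 1% of the member's own (0.313% for Eef1a1). Exons of other genes overlapped exons of 12 members on the same strand. On the opposite strand 15 members had such an overlap, where the unstated strand setting of the counting decides which gene is credited.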

How the data were processed

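RNA was extracted with RNeasy Plus Micro columns and made into libraries with the NEB Ultra II Directional kit, per the labels' protocols. The authors deposited whole-number counts per gene for 12 libraries. The submitters' processing notes name Trim Galore 0.6.6, STAR 2.7.6a, featureCounts and the mouse builds GRCm38 and mm10, while no source used here gives the annotation release or the strand setting. Gene IDs were matched to GENCODE M21 symbols for 55230 of 55471 genes, and the 241 without a match held 0.0044% of counts. Depth ran from 17569709 to 40553891 counts, most counts per gene were even numbers (67.1 to 75.9% by library), and PCR copies cannot be told from separate molecules. No value column was without a group, and columns named control were read as WT or WT_PRMT1 by their experiment.

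Counts were tested with edgeR 4.0.16 (R 4.3.3): TMM scaling, filterByExpr at a minimum count of 10, 1 mean per group, quasi-likelihood F tests with 6 residual degrees of freedom, and Benjamini-Hochberg adjustment over 17063 genes, with calls at an adjusted p under 0.05. The scripts were tested on simulated data. The SE was taken as the absolute log2 change over √F. Robust estimation of the dispersions was not part of the planned design: it was chosen after seeing the data, because it gave the call counts of an earlier analysis of this series, and the counts without it are given in the closing section. Alternatives were DESeq2 1.42.0, RLE and library-size scaling, no filter, a fit of only the groups compared, and leaving out each library. Members, gene lists and tests were chosen with earlier results of these data known. Any member may be named, with values in every library for up to 8 called members per comparison and direction by smallest p, 9 members of fixed role and the paralogue sets. Copies were sought with blastn 2.17.0, and figures were drawn with matplotlib 3.10.9.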

Additional observations from a re-analysis of the deposited data

Results flagged for a closer look

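In 20 members the change in dKO against WT differed from that in PRMT1_KO against WT_PRMT1 by the edgeR test of the difference. Among elongation factors the differences, dKO minus PRMT1_KO on the log2 scale, were -0.79 ± 0.08 for Eef1a1, -0.62 ± 0.08 for Eef2, -0.47 ± 0.09 for Eef1b2 and 0.41 ± 0.11 for Eef1d. The kinase Eef2k differed by -0.43 ± 0.11. Among factors of start site selection and tRNA delivery they were -1.08 ± 0.16 for Eif1a, -0.48 ± 0.11 for Eif5, -0.56 ± 0.12 for Eif2a and -0.59 ± 0.14 for Eif2s2. Of eIF3, Eif3e differed by -0.65 ± 0.10, Eif3h by -0.52 ± 0.11, Eif3m by -0.50 ± 0.12, Eif3i by -0.48 ± 0.11, Eif3k by -0.47 ± 0.11 and Eif3c by -0.30 ± 0.09. Around the cap, Eif4a2 differed by 1.02 ± 0.22, Eif4g3 by 0.82 ± 0.17, Eif4a1 by -0.47 ± 0.10, Eif4g2 by -0.45 ± 0.08 and Eif4b by -0.39 ± 0.11. The calls for 5 of the 20 were lost in some alternative. Eef1d was lost without WT S1 (adjusted p = 0.129), dKO S7 (0.0794), WT_PRMT1 S10 (0.148) or PRMT1_KO S9 (0.0742). Eef2k was lost without WT S2 (adjusted p = 0.0927), WT_PRMT1 S10 (0.0674), PRMT1_KO S9 (0.0623) or with library-size scaling (0.0966). Eif3c was lost without WT S1 (adjusted p = 0.101), WT S2 (0.166), dKO S7 (0.0571), WT_PRMT1 S10 (0.0959), WT_PRMT1 S11 (0.0686), PRMT1_KO S8 (0.103), PRMT1_KO S9 (0.115), with library-size scaling (0.218) or with no filter (0.0856). Eif4a2 was lost without WT_PRMT1 S10 (adjusted p = 0.0576). Eif4b was lost without WT S1 (adjusted p = 0.071), WT S2 (0.0541), PRMT1_KO S9 (0.0833) or with library-size scaling (0.134).

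In 10 members the change with both genes targeted departed from the sum of the single changes. These were Eif3m (0.67 ± 0.12), Eif3e (0.61 ± 0.10), Eef1b2 (0.50 ± 0.09), Eif3f (0.49 ± 0.11), Eif1 (0.41 ± 0.10), Eef1a1 (0.33 ± 0.08), Eif4ebp2 (0.32 ± 0.10), Eif4g2 (0.30 ± 0.08), Eef2k (-0.40 ± 0.11) and Eif4e (-0.44 ± 0.13). The first 4 kept their call without each library, and the other 6 did not.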

How the results depend on the processing

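Of 103 member calls over the 9 comparisons, 54 held without each library in turn and 52 in every alternative run, and none changed sign. Members called in HOXA9_KO against WT numbered 1 in the reported fit (6.73% of all genes called), 2 with RLE size factors (6.8%) and 8 with DESeq2 (9.55%). They numbered 0 without robust estimation (5.33%) or in a fit of only the groups compared (8.51%). Without robust estimation, an alternative chosen after seeing the data, the counts were 8 in Bcat_KO, 12 in dKO, 26 in PRMT1_KO, 1 for dKO against HOXA9_KO, 19 for dKO against Bcat_KO, 7 for departure from additivity, 21 for the dKO and PRMT1_KO difference and 1 between the controls. A fit of only the groups compared gave 14 in Bcat_KO (16.7% of all genes called), 7 in dKO (17.0%) and 29 in PRMT1_KO (47.8%). It gave 0 for dKO against HOXA9_KO (0.0202%), 15 for dKO against Bcat_KO (19.9%) and 6 for departure from additivity (5.82%). For the dKO and PRMT1_KO difference it gave 23 (19.2%), and between the controls 4 (15.6%). For dKO against HOXA9_KO DESeq2 gave 3 and no filter 2, and between the controls both gave 2. Leaving out single libraries gave 0 to 1 in HOXA9_KO, 6 to 8 in Bcat_KO, 2 to 11 in dKO, 20 to 22 in PRMT1_KO, 0 to 2 for dKO against HOXA9_KO, 12 to 16 for dKO against Bcat_KO, 5 to 11 for departure from additivity, 16 to 23 for the dKO and PRMT1_KO difference and 0 to 1 between the controls. A group left with 1 library was assumed to vary like the others. More genes passed the filter on low counts in those runs, so a lost call can also reflect the changed set of genes. The cause of these shifts was not tested. No paired analysis was possible because the columns carry S tags and not the labels' replicate numbers. With 2 libraries per group, small changes of members at few counts, such as Eif5a2, are the least certain.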
